A study of Mus musculus with 13 samples.

Results

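The 10 genes described here encode the triad of skeletal muscle fibers and the calcium-binding proteins that go with it: Ryr1, Cacna1s, Cacnb1, Trdn, Asph, Casq1, Casq2, Jph1, Jph2 and Pvalb. They were chosen by symbol, from a list of excitation-contraction coupling and calcium buffering genes, among the 17924 genes of the deposited tables, and all 10 were found and passed the filter on low counts. Their expression was compared across 13 RNA-Seq libraries of whole muscle from *mdm* mice, 5 of EDL (extensor digitorum longus), 5 of psoas and 3 of soleus, aged 29 to 42 days. All these mice carried the *mdm* mutation, a deletion in the gene of the giant sarcomere protein titin that causes muscular dystrophy with myositis, so the 3 groups differ in muscle and not in genotype. Sex was given for 6 libraries. Each library also carried 1 of 5 codes (T1, T3, T4, T5 or T6) in the condition field of its label, whose meaning was not given. The wild-type libraries of the study were not analysed here. The study took its muscles from fewer mice than it had libraries, and the labels do not tie libraries to mice, so p-values measure the spread between libraries that may in part come from the same animals.

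In a resting fiber, calcium is stored in the sarcoplasmic reticulum. When an action potential runs down a T-tubule, the dihydropyridine receptor in the tubule membrane (its pore subunit CaV1.1 is Cacna1s and its beta subunit is Cacnb1) moves and opens the calcium release channel RyR1 (Ryr1) in the facing reticulum membrane. Junctophilins (Jph1 and Jph2) hold the 2 membranes together. Triadin (Trdn) and junctin (a product of Asph) tie the channel to calsequestrin, the store's calcium buffer, whose skeletal form Casq1 is known from fast and slow fibers and whose cardiac form Casq2 is known in skeletal muscle mainly from slow fibers. Parvalbumin (Pvalb) is a soluble buffer of fast fibers that takes up cytosolic calcium during relaxation.

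Triadin and skeletal calsequestrin mRNA were lower in *mdm* psoas than in *mdm* EDL, 3.06-fold and 2.78-fold, while the cardiac calsequestrin Casq2 did not pass the test in any comparison. The ratio of Casq2 to Casq1 within a library was 3.70-fold higher in psoas than in EDL, with no overlap between the libraries. Its adjusted p was 0.0476 by an exact permutation test, and a test within same-numbered pairs could not decide it. Parvalbumin had the widest range of the 10 genes, 94.5-fold between the lowest and the highest of the 13 libraries. Its psoas and soleus libraries all lay below its EDL libraries, but its differences did not pass the limit in the edgeR fit of all 13 libraries. The 2 channel genes Ryr1 and Cacna1s overlapped between muscles in every comparison.

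The 250 bases upstream of a RefSeq start of 3 of these genes are shown because the results turn on them: the calsequestrins, whose ratio did not overlap between psoas and EDL libraries, and parvalbumin, which varied most. Pvalb has 2 annotated starts, and only the window of the more upstream one is shown. The sequences are from RefSeq on GRCm38.p6 and run 5′ to 3′ on the strand of the gene. Capitals mark the E-box CAGCTG, a site of the kind that myogenic bHLH factors bind.
Casq1, chr1:172219896-172220145, minus strand: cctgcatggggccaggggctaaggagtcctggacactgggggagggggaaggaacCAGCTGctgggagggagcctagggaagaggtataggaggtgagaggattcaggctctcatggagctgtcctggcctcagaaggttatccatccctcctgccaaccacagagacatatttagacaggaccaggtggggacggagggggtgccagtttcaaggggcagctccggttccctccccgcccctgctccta
Casq2, chr3:102086165-102086414, plus strand: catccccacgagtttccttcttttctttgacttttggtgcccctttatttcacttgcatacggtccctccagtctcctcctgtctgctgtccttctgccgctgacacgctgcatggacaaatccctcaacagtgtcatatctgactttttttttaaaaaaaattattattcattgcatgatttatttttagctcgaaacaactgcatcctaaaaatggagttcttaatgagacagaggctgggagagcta
Pvalb, chr15:78206401-78206650, minus strand: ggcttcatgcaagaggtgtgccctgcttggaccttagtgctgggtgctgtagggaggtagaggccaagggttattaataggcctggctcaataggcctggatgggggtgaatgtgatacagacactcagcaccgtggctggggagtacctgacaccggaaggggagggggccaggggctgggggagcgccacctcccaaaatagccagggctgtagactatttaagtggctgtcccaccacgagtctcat

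Promoter windows were found for 7 of the 10 genes, and Trdn, Asph and Jph1 had none in the table. The E-box CAGCTG, which reads the same on both strands, occurred in the windows of 3 of these 7 genes. Its first base lay at −195 in Casq1, at −123 in Cacna1s, and at −9 or −29 in Jph2 depending on which of its 2 annotated starts is taken, counted from −1 at the base before the start. In a check of the windows, the first bases of the transcript were not found for Casq1 or for the Jph2 start that gives −29. Those 2 positions rest on the annotated start alone. Of all 32851 promoter windows of this length, 4271 held it, a share of about 13%. Only 1 form of the MEF2 site was searched, CTA and TAG with any 4 bases between them. That form was in none of the windows of the 7 genes and in 3.20% of all windows, and it overlapped no E-box in them. Forms of the site with other end bases, such as TTA in place of CTA, were not searched. The search therefore does not show that these windows lack MEF2 sites. These are matches of letters and nothing was measured on binding.

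The 13 libraries held 9114176 to 48835209 counts each. Levels are given as the deposited normalized counts, which are counts divided by a size factor per library. The lowest level of any of the 10 genes in any library was 542 normalized counts. Before that division the lowest count was 352, of Jph1 in soleus replicate 3, so that counting error is small beside the spread between libraries. The muscle labels were checked on marker lists. The summed normalized counts of 6 fast fiber markers (Myh4, Myh1, Myh2, Actn3, Tnni2, Tnnt3) were 910318 to 2040697 in EDL, 267779 to 628290 in psoas and 140832 to 172217 in soleus. Those of 6 slow fiber markers (Myh7, Myl2, Myl3, Tnni1, Tnnt1, Tnnc1) were 264607 to 320242 in soleus and 41829 or less in the other libraries. Some lists for other cells also lay apart. Sums of 3 Schwann cell markers were 452–1238 in EDL and 2170–18414 in psoas, and those of 3 mesothelial markers 37.8–117 in EDL and 219–852 in psoas. Sums of 4 adipocyte markers were 993–4816 in EDL and 8002–13471 in soleus. The 5 regenerating fiber markers summed to 34393–66231 in EDL and 63940–141971 in psoas, with a narrow overlap. Sums of macrophage and leukocyte, fibroblast and endothelial markers overlapped between EDL and the other muscles. No marker of any list was at 0 in every library of a muscle. The part of these cells in the results below was not tested, and in whole muscle RNA fewer cells of a type and less RNA per cell cannot be told apart.

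**Figure D1:**
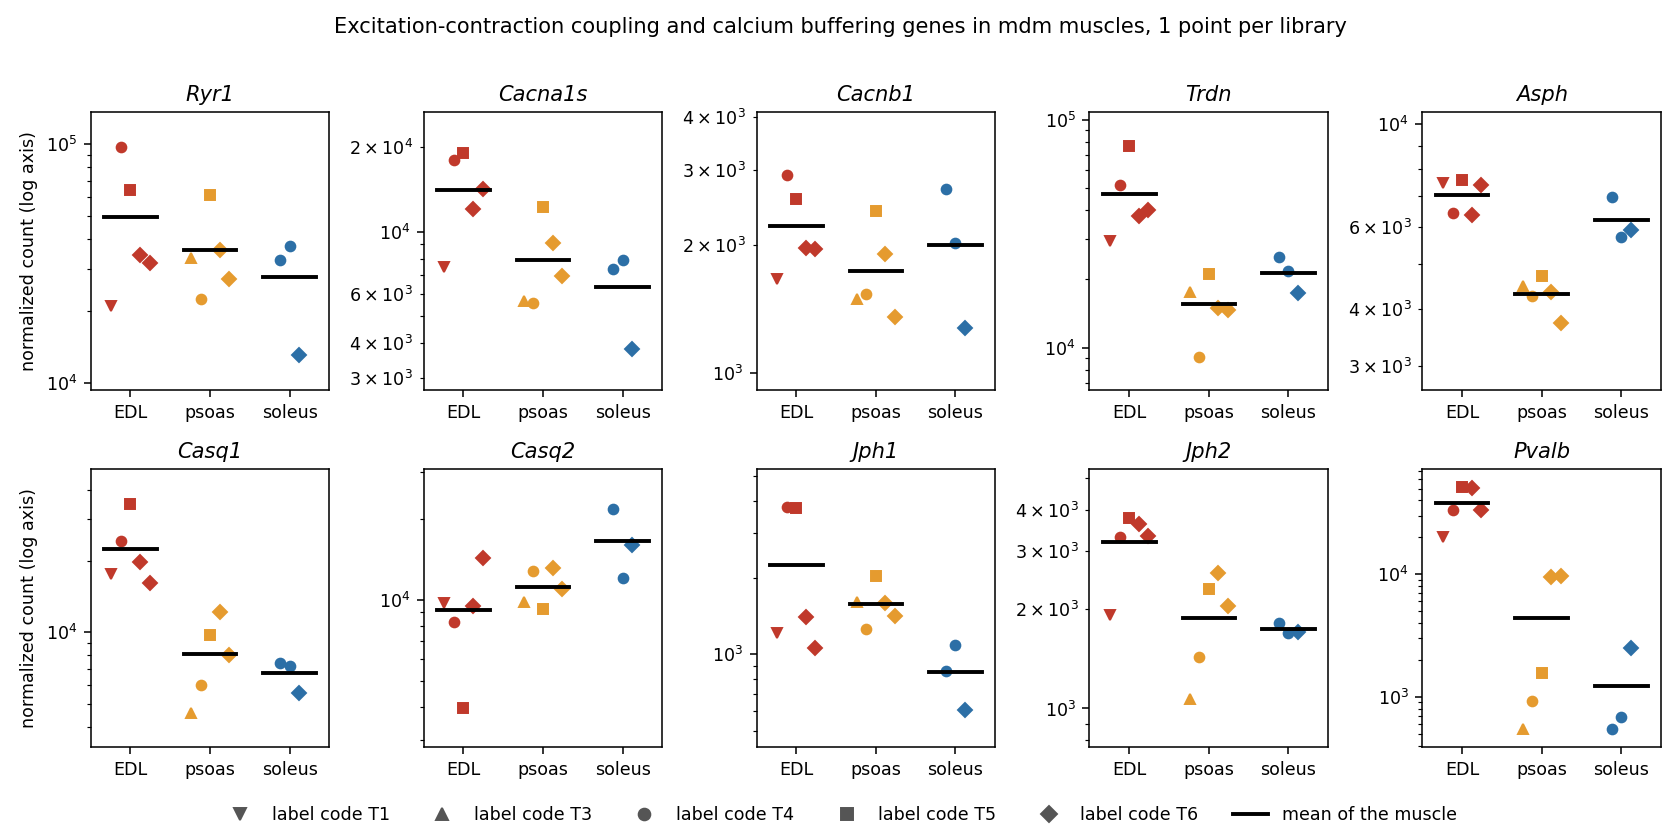
Normalized counts (log axis) of the 10 genes in each *mdm* library, 1 panel per gene, with EDL in red, psoas in orange and soleus in blue, symbols for the label code and a black line at the mean of the muscle. The EDL points of Trdn, Casq1, Asph and Pvalb lie above all psoas points, and the psoas points of Pvalb fall into a lower group of 3 (543 to 1550) and an upper pair (9414 and 9617).

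The order of the genes by level can be read only after division by exon length. In EDL, Pvalb had the highest normalized count per kb of exon, 36315 ± 12736 (SD, n = 5). Casq1 followed at 11535 ± 3859, Trdn at 5035 ± 1967 and Casq2 at 3338 ± 1351 normalized counts per kb. The channel and its sensor came next, Ryr1 at 2267 ± 1409 and Cacna1s at 2155 ± 715 normalized counts per kb, which is a smaller gap than the spread of either. Jph2 at 750 ± 174, Cacnb1 at 489 ± 113, Jph1 at 449 ± 280 and Asph at 437 ± 36.9 normalized counts per kb were lowest, and the last 3 differed by less than the SD of Cacnb1 or Jph1. In psoas the top of the order was level: Pvalb had 4235 ± 4492, Casq1 4158 ± 1543 and Casq2 4085 ± 635 normalized counts per kb (SD, n = 5). In soleus Casq2 was highest, at 6073 ± 1800 normalized counts per kb (SD, n = 3). Casq1 at 3452 ± 527 and Trdn at 2280 ± 406 normalized counts per kb followed, and Pvalb, at 1187 ± 1036, was near Ryr1 at 1269 ± 594. Jph1 was lowest in soleus at 170 ± 48.0 normalized counts per kb. The exon length of Asph (16102 bases over 15 coding transcripts) includes the parts of aspartate beta-hydroxylase and junctate, which share the gene with junctin, so that its level per kb is of all these products together.

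The comparison of psoas with EDL asks how the genes differ between muscles that are both classed as fast. In the edgeR quasi-likelihood fit, differential expression needed a p under 0.01 after Benjamini-Hochberg adjustment over the 17069 genes tested, and a log2 fold change beyond 1 in either direction. By that rule 2 of the 10 genes fell in psoas and 0 rose, beside 4.93% of all genes in either direction, 2.5% that fell and 2.43% that rose. An unadjusted p under 0.05 was found for 6 of the 10 genes and for 33.3% of all genes. The log2 fold change was below 0 for 9 of the 10 genes and its median was −0.74, against 0.02 over all genes tested. The normalized counts did not overlap, with psoas lower, for 4 of the 10 genes (Trdn, Asph, Casq1 and Pvalb), beside 6.56% of all genes.

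Trdn, on chromosome 10 (33080554 to 33476709, plus strand, GRCm38), encodes triadin. Its EDL libraries held 29311, 51618, 76729, 37626 and 40137 normalized counts in replicates 1 to 5, and its psoas libraries 17520, 9096, 21098, 14919 and 14634. The highest psoas library was below the lowest EDL library. The log2 fold change was −1.61 (SE 0.30, edgeR adjusted p = 0.00401). Trdn fell in all 8 other analyses of these libraries, but the adjusted p (edgeR) was 0.0105 without EDL replicate 3 and 0.0111 without psoas replicate 2.

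Casq1, on chromosome 1 (172209894 to 172219868, minus strand), encodes the main calsequestrin of skeletal fibers. It had 17617, 24312, 34780, 19734 and 16081 normalized counts in EDL, and 4581, 6010, 9746, 12198 and 8029 in psoas. Again the ranges did not meet, with psoas replicate 4 nearest to EDL. The log2 fold change was −1.48 (SE 0.30, edgeR adjusted p = 0.00571). The call was less firm than that of Trdn, with an edgeR adjusted p of 0.0107 to 0.0167 without EDL replicate 2, EDL replicate 3 or psoas replicate 1, 2 or 5, and 0.0108 in a fit of EDL and psoas alone.

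Asph, on chromosome 4 (9448069 to 9669344, minus strand), had the narrowest spread of the 10 genes over the 13 libraries. Its normalized counts were 7460, 6422, 7577, 6371 and 7383 in EDL and 4471, 4266, 4693, 4351 and 3728 in psoas. The groups lay well apart, and psoas was 1.64-fold lower (log2 fold change −0.71, SE 0.16, edgeR adjusted p = 0.00918), a difference past the limit on p and short of the limit on fold change. The p missed its limit in all 13 fits that left out a library (edgeR adjusted p 0.0109 to 0.0266).

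Pvalb, on chromosome 15 (78191114 to 78206400, minus strand), had 20177, 33278, 51167, 50993 and 33406 normalized counts in EDL. In psoas it had 543, 922, 1550, 9414 and 9617. The 3 lowest psoas libraries carried the codes T3, T4 and T5 and the upper pair the code T6, and no psoas library reached EDL. The log2 fold change was −3.10 (SE 0.76), 8.59-fold lower, with an edgeR adjusted p of 0.0139 that missed the limit. With the replicate number as a block the log2 fold change was −4.00 (SE 0.60, edgeR adjusted p = 0.00214) and −3.66 when the label code was the block (SE 0.57, edgeR adjusted p = 0.00276). Pvalb passed in both, as it did by DESeq2 (adjusted p = 0.000388) and by limma on log2 normalized counts (adjusted p = 0.00300). Its adjusted p ran from 0.000388 to 0.0186 over the 8 other analyses, 1 of them of EDL and psoas alone. Within codes the log2 difference, psoas minus EDL, was −5.20 in T4, −5.05 in T5 and −2.11 in T6.

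The remaining genes of the triad did not pass. Jph2, the junctophilin known best from heart, was nearest, with 1919 to 3783 normalized counts in EDL and 1068 to 2566 in psoas (log2 fold change −0.76, SE 0.25, edgeR adjusted p = 0.0468). Cacna1s had 7453 to 18993 in EDL and 5548 to 12212 in psoas (log2 fold change −0.84, SE 0.32, edgeR adjusted p = 0.0771). The libraries of both genes overlapped between the muscles. Ryr1 spanned 21009 to 96673 normalized counts within EDL alone and 22319 to 61105 in psoas (log2 fold change −0.47, SE 0.43, edgeR adjusted p = 0.482). Cacnb1 (log2 fold change −0.35, SE 0.24) and Jph1 (−0.51, SE 0.36) had edgeR adjusted p of 0.331 and 0.341. Casq2 alone had a fold change above 0 (log2 fold change 0.29, SE 0.29, edgeR adjusted p = 0.512).

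These fold changes are relative to the bulk of genes, since the TMM scaling sets their median near 0. When only the library total was used, a setting added after seeing the data, the median over all genes moved to 0.56 in psoas against EDL, to 0.39 in soleus against EDL and to −0.16 in soleus against psoas. In that scaling Ryr1 (0.18), Cacnb1 (0.17) and Jph1 (0.22) turned to log2 differences above 0 in psoas against EDL, all below that median, while Trdn (−1.06), Casq1 (−0.98), Asph (−0.19), Jph2 (−0.28) and Cacna1s (−0.32) stayed below 0. In soleus against EDL, Cacnb1 (0.20) and Asph (0.20) turned to values above 0, again below the shift of the median.

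**Figure D2:**
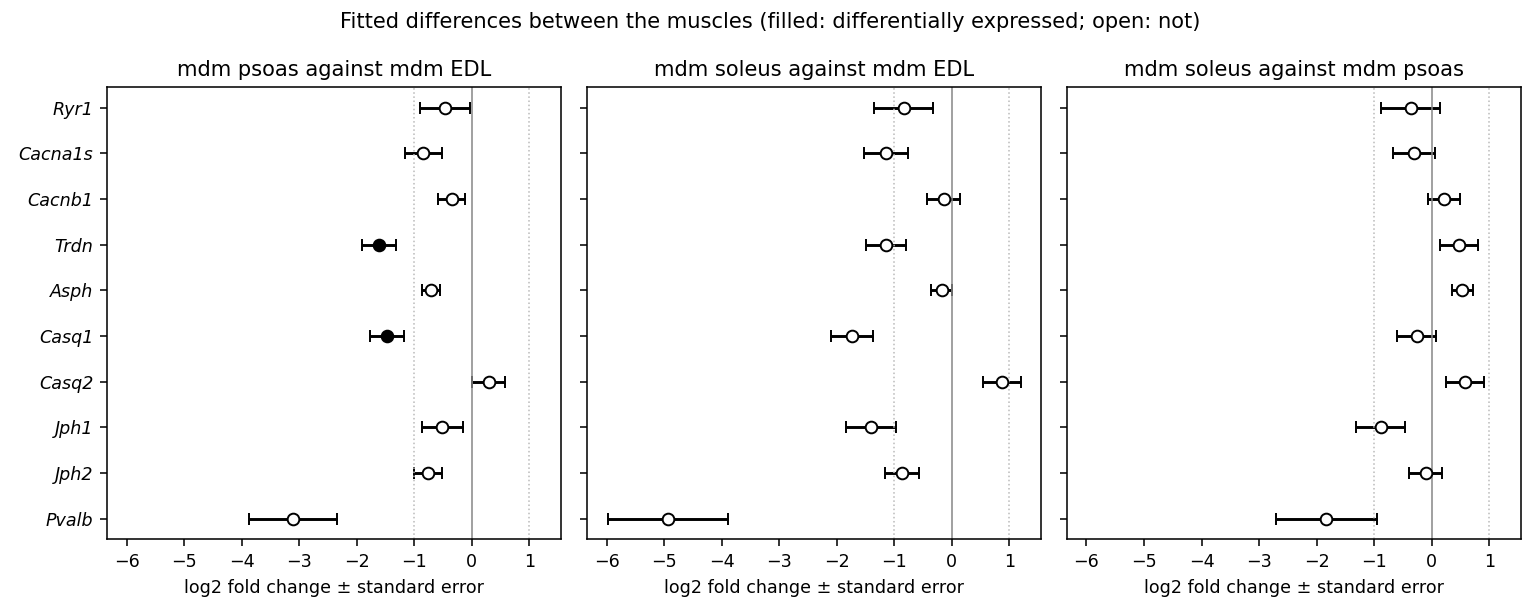
Log2 fold change (x axis, with standard error bars) of the 10 genes in the 3 comparisons between *mdm* muscles, from the edgeR fit of 13 libraries, with dotted lines at the fold change limits of −1 and 1. Filled points passed the test, which were Trdn and Casq1 in psoas against EDL, and Pvalb has the lowest value in each panel.

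The other genes of the system were read from a list of 34, of which 3 fell in psoas against EDL and 0 rose, beside 2.5% of all genes that fell and 2.43% that rose. In the list of 13 triad and release complex genes, Homer1, a scaffold that binds the release channel, fell (log2 fold change −1.33, SE 0.25, edgeR adjusted p = 0.00398), from 1226 ± 441 to 491 ± 86.5 normalized counts (SD, n = 5 each). Stac3, an adaptor that carries CaV1.1 to the triad, fell from 1244 ± 352 to 565 ± 186 normalized counts (log2 fold change −1.14, SE 0.26, edgeR adjusted p = 0.00936). Of 8 calcium-binding proteins only Hrc passed in edgeR, a histidine-rich protein of the reticulum lumen that binds triadin (log2 fold change −1.54, SE 0.35, edgeR adjusted p = 0.00953). Hrc went from 9529 ± 3723 to 3293 ± 802 normalized counts. It passed in 5 of the 8 other analyses. It did not pass with the replicate block (edgeR adjusted p = 0.0188), with the label code block or without the filter on low counts. Stac3 passed in 6 of the 8, not in the fit of EDL and psoas alone or without the filter, and Homer1 in all 8. DESeq2 also called Srl (sarcalumenin, a calcium-binding glycoprotein of the reticulum lumen), whose psoas libraries all lay below EDL (log2 fold change −1.26, SE 0.29, edgeR adjusted p = 0.0109). The calls of Stac3 and Hrc held in 1 and 2 of the 13 fits that left out a library, with edgeR adjusted p up to 0.0275 and 0.0282, and that of Homer1 in 10 of 13 (not without EDL replicate 3 or psoas replicate 1 or 2, edgeR adjusted p up to 0.0122). In the lists of 6 T-tubule and membrane repair genes and of 7 store-operated entry and exchange genes, 0 genes passed in edgeR, while 3 and 2 had an unadjusted p under 0.05, beside 33.3% of all genes. Over the latter pair of lists, limma called 0 genes and DESeq2 called 1, the sodium-calcium exchanger Slc8a3. The median log2 fold change over the 34 genes was −0.43.

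Within codes, the psoas libraries could be set beside EDL libraries of the same code in T4 (1 against 1), T5 (1 against 1) and T6 (2 against 2). Trdn was lower in psoas in each, by log2 differences of −2.54, −1.87 and −1.38. Casq1 had −2.05, −1.84 and −0.84. Asph was the most even of all, at −0.62, −0.70 and −0.76. Ryr1 was not: −2.15 in T4 but −0.07 in both T5 and T6. Jph1 changed side, from −1.63 in T4 and −0.89 in T5 to 0.31 in T6.

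**Figure D3:**
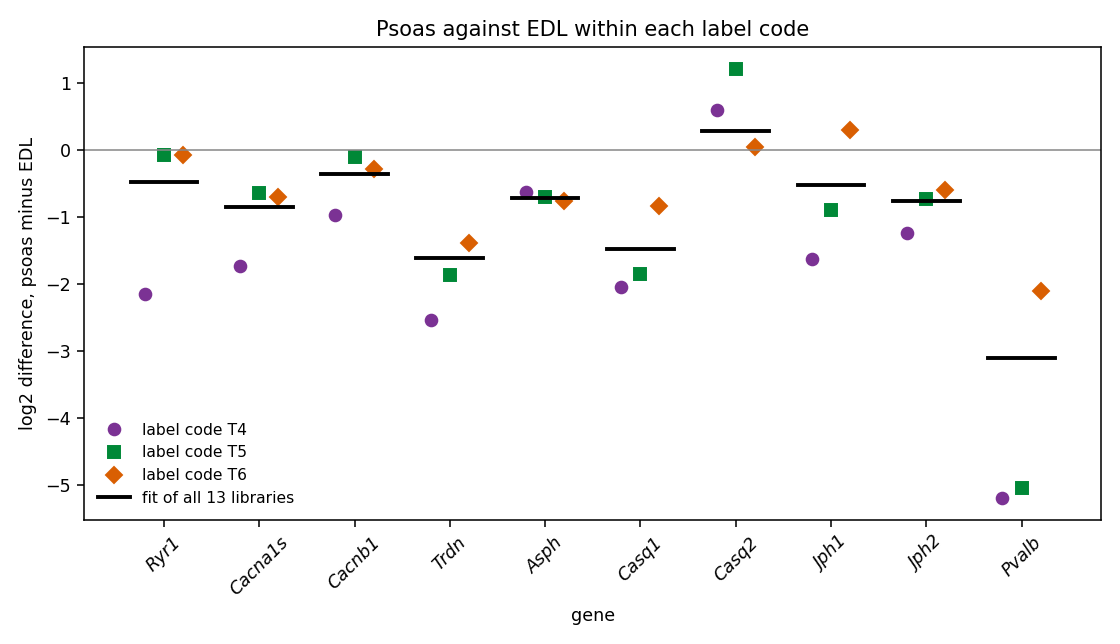
Log2 difference in CPM (counts scaled to the TMM-adjusted library size), psoas minus EDL, of the 10 genes within label codes T4, T5 and T6 (points), beside the log2 fold change of the fit of 13 libraries (black lines). All genes but Casq2 and Jph1 lie below 0 in all 3 codes, Casq2 lies above 0 in each and Jph1 on both sides of 0.

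The comparison of soleus with EDL sets a slow muscle against a fast one. In edgeR 0 of the 10 genes passed, beside 0.978% of all genes, while 7 of the 10 had an unadjusted p under 0.05, beside 15.1% of all genes, and DESeq2 and limma called 2 each, Casq1 and Pvalb. This comparison used the same EDL libraries as the one before. The log2 fold change was below 0 for 9 of 10 genes, with a median of −1.01 against −0.03 over all genes. For 4 genes the soleus libraries all lay below EDL (Trdn, Casq1, Jph2 and Pvalb), beside 5.72% of all genes.

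Pvalb had 542, 686 and 2478 normalized counts in soleus replicates 1 to 3, against 20177 or more in EDL. The highest soleus library was the one with code T6. The log2 fold change was −4.94 (SE 1.05), 30.6-fold lower, with an edgeR adjusted p of 0.0182 that missed the limit and 0.00874 without psoas replicate 1, which enters through the shared estimate of the spread. Over the 8 other analyses the adjusted p of Pvalb ran from 9.31e-07 (DESeq2) to 0.0192, and 5 of the 8 called it. Casq1 had 7425, 7228 and 5554 normalized counts in soleus, below the 16081 of its lowest EDL library (log2 fold change −1.74, SE 0.36, edgeR adjusted p = 0.0169). Its adjusted p over those analyses ran from 1.33e-05 (DESeq2) to 0.0374.

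Triadin in soleus was between the other muscles, with 24914, 21712 and 17341 normalized counts (log2 fold change against EDL −1.14, SE 0.35, edgeR adjusted p = 0.103). Jph1 had its lowest levels there, with 857, 1085 and 605 normalized counts (log2 fold change against EDL −1.40, SE 0.44, edgeR adjusted p = 0.106). Neither passed, and Jph1 overlapped EDL, where replicate 5 held 1062. Casq2 went the other way, with 21831, 12043 and 15975 normalized counts in soleus and 9695, 8240, 3954, 9490 and 14289 in EDL (log2 fold change 0.87, SE 0.32, edgeR adjusted p = 0.190). Its groups overlapped through EDL replicate 5. Cacna1s (log2 fold change −1.15), Jph2 (−0.87), Ryr1 (−0.84), Asph (−0.18) and Cacnb1 (−0.14) had edgeR adjusted p from 0.130 to 0.871.

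Of the 34 other genes of the system, 0 passed in edgeR in soleus against EDL, with 12 at an unadjusted p under 0.05, beside 15.1% of all genes, 2 called by DESeq2 and 1 by limma. The 2 called by DESeq2 were Cacng1 and Slc8a1, and limma called Cacng1. The 3 with the lowest unadjusted p, none of which passed in edgeR, were Cacng1, the gamma subunit of the dihydropyridine receptor (log2 fold change −1.37, SE 0.27, edgeR adjusted p = 0.0132), and the sodium-calcium exchangers Slc8a1 (−1.14, SE 0.29, edgeR adjusted p = 0.0440) and Slc8a3 (−1.43, SE 0.45, edgeR adjusted p = 0.106).

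Between soleus and psoas, 0 of the 10 genes passed in edgeR, DESeq2 or limma, beside 0.0762% of all genes in edgeR, and 1 had an unadjusted p under 0.05, beside 12.7% of all genes. That gene was Asph, with 6969, 5716 and 5913 normalized counts in soleus, all above its highest psoas library at 4693 (log2 fold change 0.53, SE 0.18, edgeR adjusted p = 0.235). Jph1 lay lower in all soleus libraries than in psoas, where it had 1253 to 2033 normalized counts (log2 fold change −0.89, SE 0.43, edgeR adjusted p = 0.410). Non-overlap of this kind was found with soleus higher for 4.97% and lower for 5.19% of all genes. The others had log2 fold changes from −1.83 (Pvalb, SE 0.88) to 0.58 (Casq2, SE 0.33), with edgeR adjusted p of 0.409 or more, and the signs of Cacnb1 (0.21) and Jph2 (−0.11) turned in some of the other analyses. Of the 34 other genes, 0 passed in edgeR, DESeq2 or limma, and 8 had an unadjusted p under 0.05. The lowest unadjusted p belonged to S100a1, a calcium sensor that binds RyR1 (log2 fold change 0.98, SE 0.23, edgeR adjusted p = 0.0834), Stim2, a sensor of store calcium (−0.76, SE 0.20, edgeR adjusted p = 0.127), and Cacng1 (−0.94, SE 0.27, edgeR adjusted p = 0.156), none of which passed.

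Each pair of paralogues was also compared as a ratio within a library, which no size factor can move. The log2 ratio of Casq2 to Casq1 counts was −0.86, −1.56, −3.14, −1.06 and −0.17 in EDL, 1.09, 1.09, −0.08, 0.11 and 0.45 in psoas, and 1.56, 0.74 and 1.52 in soleus. All psoas and soleus libraries were above all EDL libraries. The mean was 1.89 higher in psoas than in EDL (0.53 ± 0.54 against −1.36 ± 1.11, SD, n = 5 each, exact two-sided permutation test, p = 0.00794, the smallest this design allows, 0.0476 after Benjamini-Hochberg adjustment over 6 ratio tests). The 5 same-numbered pairs all had the higher ratio in psoas, by 0.62 to 3.06, as any pairing would, since the groups did not overlap. An exact two-sided permutation test that exchanged the muscles only within these pairs, added after seeing the data, gave p = 0.0625 (adjusted p = 0.125). That is the smallest p 5 pairs allow, so this test could not reach 0.05 whatever the data. It does not decide whether the ratio differs under the pairing. Without any 1 psoas library the difference was 1.75 to 2.04 and the adjusted p of the exact permutation test 0.0536. Soleus was 2.63 above EDL (1.27 ± 0.46, SD, n = 3, exact two-sided permutation test, p = 0.0179, also the smallest possible, adjusted p = 0.0536), and soleus was 0.74 above psoas with overlap (exact two-sided permutation test, p = 0.0893, adjusted p = 0.134).

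Per exon length, Casq2 made up 7.50% to 38.8% of the calsequestrin counts in EDL, 40.3% to 60.3% in psoas and 54.3% to 67.7% in soleus. The lowest share was in EDL replicate 3 and the highest in soleus replicate 1. The psoas libraries had slow fiber marker sums of 6316 to 41829, the same range as EDL at 6032 to 41633, and fast fiber marker sums below all EDL libraries. The part of fiber composition in the ratio was not tested.

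For the junctophilins the shares did not separate. Jph2 made up 50.6% to 78.6% of the junctophilin counts per exon length in EDL, 43.8% to 65.4% in psoas and 64.8% to 76.8% in soleus. The log2 ratio of Jph2 to Jph1 counts differed by −0.50 in psoas against EDL, 0.38 in soleus against EDL and 0.87 in soleus against psoas, with adjusted p of 0.343, 0.464 and 0.107 (exact two-sided permutation tests).

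**Figure D4:**
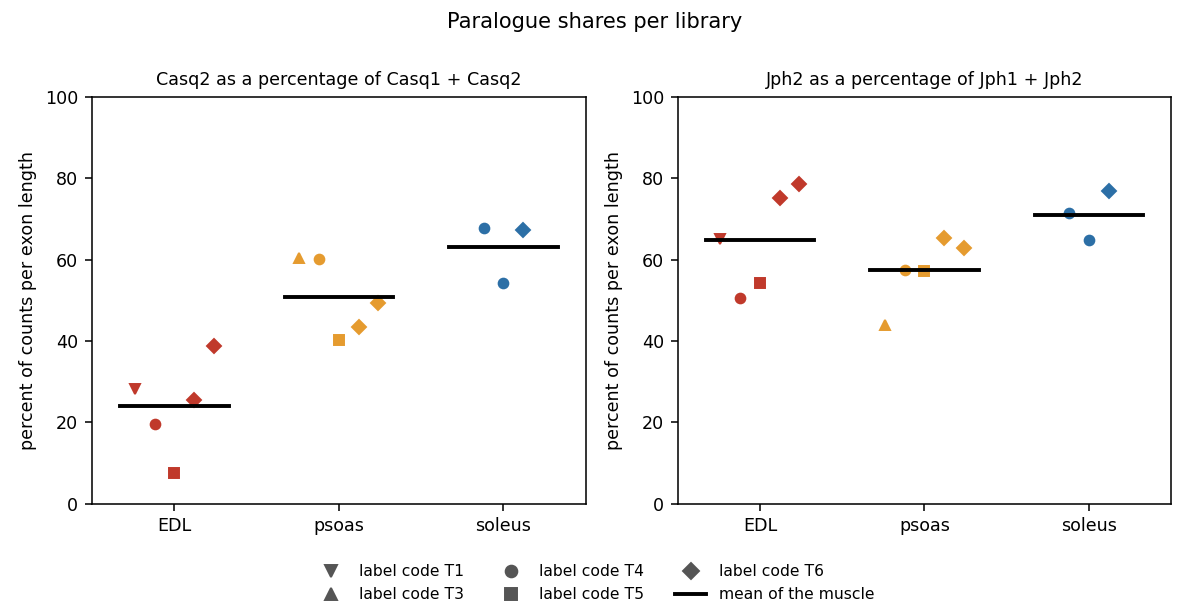
Casq2 as a percentage of Casq1 plus Casq2 (left) and Jph2 as a percentage of Jph1 plus Jph2 (right), from counts per exon length, 1 point per *mdm* library with symbols for the label code and a black line at the mean of the muscle. The Casq2 share runs from 7.50% to 38.8% in EDL and from 40.3% upward in psoas and soleus, and the Jph2 shares of the 3 muscles overlap.

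Across the 13 libraries Casq2 ran opposite to the other genes. All 36 pairs without Casq2 had a Pearson r of log2 CPM above 0, with a median of 0.63, and all 9 pairs with Casq2 had an r below 0, with a median of −0.56. The values share libraries and muscles, so they describe these libraries only. The highest were Casq1 with Jph2 (0.90), Casq1 with Pvalb (0.88) and Ryr1 with Jph1 (0.87), and the lowest was Casq2 with Jph1 (−0.82). After the mean of each muscle was taken out, Ryr1 still went with Cacna1s (0.90), Cacnb1 (0.90) and Jph1 (0.89), while Casq1 with Pvalb dropped to 0.52 and Trdn with Pvalb from 0.68 to 0.05. The split was less clean within muscles. Of the 36 pairs without Casq2, 31 stayed above 0 and 5 fell below it, 4 of them with Pvalb, down to −0.46 for Asph with Pvalb. The 9 pairs with Casq2 were below 0, from −0.72 to −0.03, the values near 0 being those with Asph and Pvalb.

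**Figure D5:**
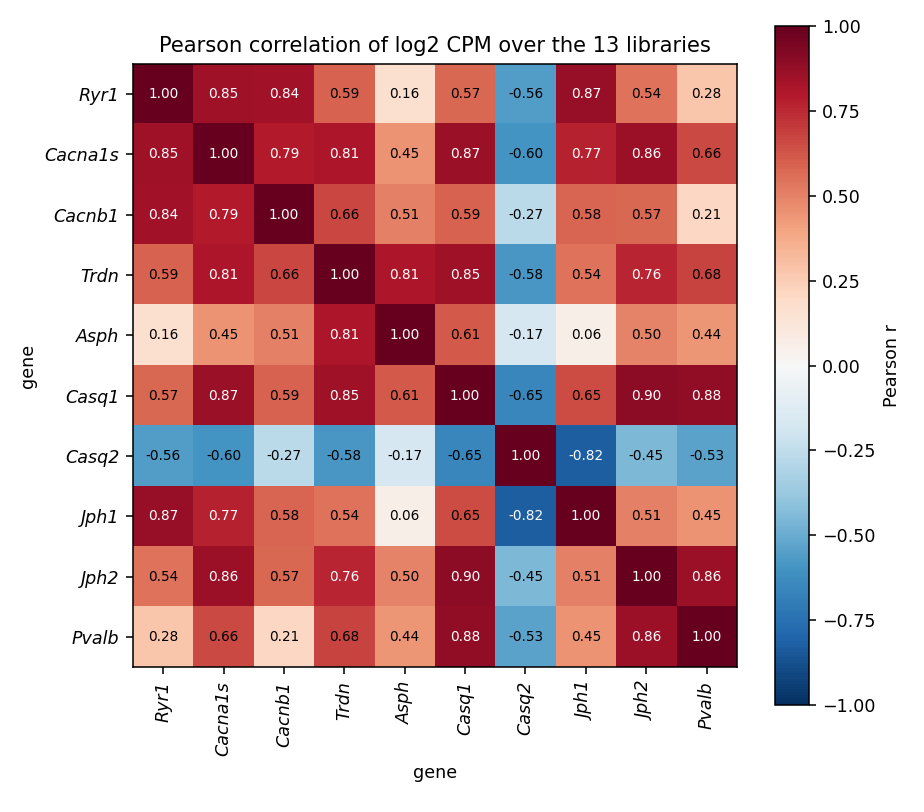
Pearson correlation of log2 CPM between the 10 genes over the 13 *mdm* libraries, as a color scale from −1 (blue) to 1 (red) with the value in each cell. The row of Casq2 is below 0 for every other gene, from −0.17 with Asph to −0.82 with Jph1, and all other cells are above 0.

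Within a muscle, the same libraries were highest or lowest for several genes. In EDL, replicate 3 (code T5, labelled female, 42 days) was highest of 5 for 6 of the 10 genes and lowest for Casq2. In psoas, replicate 3, with the same code, age and sex label, was highest for 6 genes and also lowest for Casq2. EDL replicate 1 was lowest for 6 genes, and soleus replicate 3 was lowest of 3 for 6 genes. The share over all genes was not counted, so these extremes are not shown to be particular to the 10 genes. EDL replicate 1 was the most deeply sequenced library of all and soleus replicate 3 the least, with 48835209 and 9114176 counts. The part of code, age, sex and depth in this spread was not tested. In the RNA integrity numbers listed by the study, no psoas library was above the lowest EDL library. The part of RNA integrity in the differences between these muscles was not tested.

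The genes most like 3 of the members over the 13 libraries were found among all genes tested by the Pearson r of log2 CPM. Ryr1 was closest to Msi2 (0.93), Rab5b (0.92), Ubr3 (0.92), Tecpr2 (0.92) and Prkar2a (0.91). Casq2 was closest to Tmem273 (0.91), Opn3 (0.89), R74862 (0.88), Sept10 (0.88) and Prelid1 (0.87). Pvalb was closest to Phkg1 (0.98), the catalytic subunit of muscle phosphorylase kinase, and to Gm12319 (0.97), Slc41a3 (0.97), 6430571L13Rik (0.97) and Tmem233 (0.97). With so many genes searched over 13 libraries, high values arise for any gene, and they are given as a description.

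Some counts may hold reads of neighbors. The strand setting of the counting was not given in the sources used here, and exons of 6 of the genes overlap exons annotated on the other strand, by 2368 bases in Asph, 1309 in Cacna1s, 914 in Ryr1, 156 in Casq1, 80 in Cacnb1 and 34 in Jph1. Trdn, Casq2, Jph2 and Pvalb have no such overlap. Trdn has 7 coding transcripts, whose reads were counted together, so that skeletal and cardiac triadin forms are not separated.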

How the data were processed

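Per the labels, total RNA of *mdm* EDL, psoas and soleus was sequenced as stranded paired-end libraries. The authors trimmed reads (Trimmomatic 0.32) only in libraries with low base quality and left the others untrimmed. They aligned reads to GRCm38.p4 with TopHat 2.1.1 and counted them on genes with GenomicAlignments. The deposited counts are whole numbers, 9114176 to 48835209 per library. The deposited normalized signal is the count divided by 1 DESeq2 size factor per library (0.5023 to 2.417, checked within 5.2e-15), which the authors computed with libraries not used here. Of 17924 genes, GENCODE M21 gave a symbol for 17833, and 0 entries named no gene.

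The test covered 17069 genes, those reaching 10 normalized counts in 3 or more libraries. All 13 libraries entered 1 quasi-likelihood fit of edgeR 4.0.16 (R 4.3.3, TMM, muscle as the only factor), where the study had used DESeq2 with the sequencing run, which the labels do not name. A gene passed below an adjusted p of 0.01 with a log2 fold change beyond 1 in either direction. Standard errors were obtained from the F value (fold change over its square root). On simulated counts the fit was tested for recovery of known changes. Alternatives were DESeq2 1.42.0 (Wald test, or its size factors in edgeR), limma 3.58.1 on log2(normalized count + 1), no filter on low counts, filterByExpr, 2 muscles only, the label code or replicate number as a block, and each library left out. Log2 CPM has a prior count of 2, and ratios a pseudocount of 0.5. Tables were made in Python 3.11.15 (scipy 1.17.1, numpy 2.4.6, pandas 2.3.3), and matplotlib 3.10.9 drew the figures.

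Same-numbered psoas and EDL libraries deviated together from their muscle means (r 0.29 to 0.41 over genes in all 5 pairs). Their numbers were therefore taken as pairs in the replicate block and in the ratio test within pairs. The main fit and the other ratio tests did not use the pairing. Replicate 1 is not a pair of 1 mouse, since its age differs (38 days in EDL, 29 in psoas), as does its code, though its r was 0.41. The other same-numbered pairs also share a code. Psoas and EDL libraries of code T6 with different numbers had r of 0.18 and 0.24. In those pairs number and code cannot be told apart. Same-numbered pairs with soleus had r from −0.30 to 0.42 and differ in age. Soleus replicate 3 and EDL replicate 4, of different numbers and both of code T6, had an r of 0.44. A high r thus does not by itself identify a pair. No pair of libraries of 1 muscle was a duplicate (chi-square per degree of freedom of at least 53.1).

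The 10 genes, the lists of other genes and of markers, and the tests were chosen with earlier results of these data known. The text names all 10 genes, the listed genes that passed (or the 3 with the lowest unadjusted p where fewer than 3 did), and the 5 most alike genes for Ryr1, Casq2 and Pvalb.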

Additional observations from a re-analysis of the deposited data

Results flagged for a closer look

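In *mdm* EDL, replicate 1 held 1919 normalized counts of Jph2, apart from the other 4 EDL libraries at 3302 to 3783, a gap of 0.742 of the range of the group. It was the only value set apart in this way among 24 sets of 5 values examined (the 10 genes and the 2 paralogue shares, in EDL and in psoas), and chance alone sets apart about 1 group in 20. Without this library the psoas against EDL difference of Jph2 kept its sign and did not pass the test.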

How the results depend on the processing

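The count of the 10 genes that passed in psoas against EDL was 2, 1 in a fit of EDL and psoas alone, and 3, with Pvalb, by DESeq2, by limma and with the label code or the replicate number as a block. In soleus against EDL it was 0, and 1 in 2 muscles alone, 2 by DESeq2, 1 with the label code as a block, 2 by limma and 1 with the replicate block. Leaving out 1 library gave 0 to 2, 0 to 1 and 0 to 0 genes in psoas against EDL, soleus against EDL and soleus against psoas. Over all genes, 841 passed in psoas against EDL (557 in 2 muscles alone, 1586 by DESeq2, 317 to 802 with a library left out), 167 in soleus against EDL (633 by DESeq2, 86 with the label code, 19 to 182) and 13 in soleus against psoas (8 in 2 muscles alone, 171 by DESeq2, 6 with the label code, 20 by limma, 3 to 21). With the replicate block 1192 genes passed in psoas against EDL. There the pairing changed the calls of Pvalb and Hrc and no other call of the 10 genes, Homer1 or Stac3. For the Casq2 to Casq1 ratio (difference 1.89), the exact permutation test within pairs gave p = 0.0625 (adjusted p = 0.125). That p is the smallest 5 pairs allow, so the test cannot show whether pairing changes the call of the ratio. The ratio was higher in psoas in all 5 pairs. Soleus libraries differ in age from the same-numbered others, and with that number as a replicate block 126 genes passed against EDL, Pvalb among them (log2 fold change −4.58, edgeR adjusted p = 0.00906), and 11 against psoas. The log2 Casq2 to Casq1 difference was 1.44 to 2.19, 2.18 to 2.93 and 0.59 to 1.01 with a library left out, in the same order, and that of Jph2 to Jph1 −0.72 to −0.26, 0.15 to 0.61 and 0.66 to 1.09. With a library left out, signs turned for Cacnb1 in soleus against EDL (−0.42 to 0.10, above 0 without soleus replicate 3), for Cacnb1 in soleus against psoas (−0.063 to 0.45, below 0 without soleus replicate 1) and for Jph2 in soleus against psoas (−0.25 to 0.023, above 0 without psoas replicate 4), the latter also with the replicate block (0.15). The cause of these shifts was not tested. With 3 soleus libraries, an exact permutation test against 5 others cannot go below 0.0179.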
